A study of Mus musculus with 7 samples.

Results

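Hepatocyte transcription factors are the DNA-binding proteins that set and keep the liver's gene programme. Here they are the 9 genes Hnf4a, Foxa1, Foxa2, Foxa3, Cebpa, Cebpb, Cebpd, Onecut1 and Prox1, chosen by name and not by their values. A gene was taken where the platform annotation of the Affymetrix mouse U74Av2 array gave a probe set that gene symbol alone. All 9 had such a probe set, 1 each, among 8251 named genes. The RNA was total liver RNA of 7 female mice, 1 array each, labelled phenotypically normal (+/+ or +/df), with free access to standard pelleted food and aged 24 to 26 months. One label field names the dwarf genotype (df/df) instead, and here the animals are treated as normal, as in their titles. The Ames dwarf mutation, df, disrupts pituitary development, so that dwarf animals lack growth hormone, prolactin and thyrotropin. Carriers with 1 copy look normal, and the labels do not say which animals carry it. No second group was analysed here, so the data give each factor's level and its spread between animals, named as replicates 1, 2, 3, 4, 6, 7 and 8. Separate animals are not stated explicitly, so p-values measure the spread between these samples, part of which may be technical.

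The factors work as a network that binds its own members' genes as well as those of plasma proteins and metabolic enzymes. Hnf4a is a nuclear receptor needed for most hepatocyte functions. The Foxa proteins are forkhead factors that open chromatin at liver genes. The C/EBP proteins are leucine zipper factors: Cebpa sustains metabolic genes, and Cebpb and Cebpd drive the acute phase response. Onecut1 acts in bile duct development and in glucose and bile acid metabolism, and Prox1 is a homeobox factor that also restrains Hnf4a and the nuclear receptor Nr5a2.

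The stretches before the start sites of 4 factors are shown first, because the spread and the relations described further on turn on these genes. RefSeq tables of build GRCm38.p6 gave such stretches for 8 of the 9 factors, all but Cebpd, and 12 starts in all. Each line is the 250 bases that end just before a start, 5′ to 3′, with matches to 10 short motifs in capitals. The motifs were read on both strands. Those of the general machinery were the TATA box, searched as TATAAA, the CCAAT box, searched as CCAAT, the GC box, searched as GGGCGG, and the E box, searched as CACGTG. The forkhead motif was searched as TGTTTAC, the short Hnf1 motif as GTTAAT, the short Hnf4a motif as CAAAGTCC and the C/EBP motif as TTGCNNAA. The short cyclic AMP response motif was searched as TGACG, and the Onecut motif as ATCGAT. Adjoining matches run together in 1 stretch of capitals.

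Hnf4a, upstream start, chr2:163506607-163506856, plus strand: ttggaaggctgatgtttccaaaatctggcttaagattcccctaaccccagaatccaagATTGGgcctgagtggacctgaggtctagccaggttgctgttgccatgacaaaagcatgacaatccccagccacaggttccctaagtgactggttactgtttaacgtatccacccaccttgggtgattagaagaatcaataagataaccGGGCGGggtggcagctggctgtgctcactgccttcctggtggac

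Hnf4a, downstream start, chr2:163546905-163547154, plus strand: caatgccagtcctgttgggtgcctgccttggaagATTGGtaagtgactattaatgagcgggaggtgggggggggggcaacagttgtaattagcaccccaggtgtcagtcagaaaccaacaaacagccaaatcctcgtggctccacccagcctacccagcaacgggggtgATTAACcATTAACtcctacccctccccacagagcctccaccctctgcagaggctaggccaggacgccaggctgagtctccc

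Foxa1, chr12:57546112-57546361, minus strand: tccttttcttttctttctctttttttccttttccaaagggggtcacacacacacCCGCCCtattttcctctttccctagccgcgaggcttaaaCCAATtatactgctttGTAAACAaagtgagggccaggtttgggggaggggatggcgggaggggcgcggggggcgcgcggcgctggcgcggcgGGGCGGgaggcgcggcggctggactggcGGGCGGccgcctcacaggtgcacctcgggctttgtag

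Cebpb, chr2:167688665-167688914, plus strand: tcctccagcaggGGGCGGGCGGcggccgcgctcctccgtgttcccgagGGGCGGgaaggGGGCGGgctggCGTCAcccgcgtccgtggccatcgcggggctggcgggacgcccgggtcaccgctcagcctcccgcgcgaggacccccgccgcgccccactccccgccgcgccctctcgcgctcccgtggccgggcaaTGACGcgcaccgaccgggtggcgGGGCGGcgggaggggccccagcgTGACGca

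Onecut1, chr9:74861671-74861920, plus strand: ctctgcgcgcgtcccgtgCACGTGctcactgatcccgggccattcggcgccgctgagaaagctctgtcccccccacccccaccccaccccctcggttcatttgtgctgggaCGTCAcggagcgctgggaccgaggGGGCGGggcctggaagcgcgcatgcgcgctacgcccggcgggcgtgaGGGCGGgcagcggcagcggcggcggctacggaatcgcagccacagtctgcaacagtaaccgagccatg

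The 2 starts of Hnf4a lie 40298 bases apart, and the transcripts that the probe set reads are not named in the sources used here. The window of the downstream start held 2 short Hnf1 motifs, a motif found in 6.43% of the 32851 windows of the table. That of Foxa1 held 1 forkhead match, found in 3.17% of windows. That of Cebpb held 5 GC boxes and 3 cyclic AMP motifs. At least 1 GC box was found in 32.7% of windows and at least 1 cyclic AMP motif in 17.8%. The Cebpb window was 81.6% G or C, against a median of 52.4% over all windows. The window of Onecut1 held 1 E box, found in 6.02%. The CCAAT box was found in 33.8% of windows, the TATA box in 12.4%, the C/EBP motif in 9.56%, the Hnf4a motif in 1.20% and the Onecut motif in 0.728%. A match describes the letters and is not a bound site.

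The arrays carried the RNA of liver parenchyma. All 7 measured hepatocyte markers were bright, with a median scaled signal of 22825. The bile duct markers Krt7 and Epcam lay below the floor of 50.04, used here as the lowest readable signal, on every array, and Krt19 reached at most 65.8. Macrophage markers had a median of 768 over 8 genes and stellate cell markers 442 over 5. Skeletal muscle markers summed to 8784.5 on replicate 1, 3962 on replicate 2 and 650.5 to 866 elsewhere. This sum was led by Acta1, at 5991 on replicate 1, where Atp2a1 and Myl1 were also highest. Ckm, a muscle marker too, went the other way, from 144 on replicate 1 to 210 on replicate 8. By the 9 bacterial spike-in probe sets, the arrays fell into 2 array sets, with a mean log2 spike-in signal of 10.64 or more on replicates 1 to 4 and 10.24 or less on replicates 6 to 8. The labels give no such division.

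Signals here are scaled array intensities, and a percentile ranks a probe set among the 8251 named genes, not the amount of its transcript. Each probe set has its own response, so levels of different factors are not set against one another. In bulk RNA, fewer cells that express a gene and less RNA of it per cell cannot be told apart.

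Hnf4a (NCBI gene 15378) had a mean signal of 1251 ± 374 (SD, n = 7), at the 85.7th percentile. It was lowest on replicate 4 at 639, had a median of 1382 and was highest on replicate 7 at 1644, a 2.57-fold range. Replicate 1 was next lowest at 903, and replicates 6, 7 and 8 were the 3 highest, at 1597, 1644 and 1447.

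The Foxa factors were measured at the middle of the array's range and above. Foxa1 (NCBI gene 15375) had 233 ± 39.9 (SD, n = 7), from 172 on replicate 4 through a median of 233 to 290.4 on replicate 8. Its lowest animal was also that of Hnf4a. Foxa2 (NCBI gene 15376) had 1068 ± 146, with 814 on replicate 1, 915 on replicate 2 and at least 1093, at most 1197, elsewhere. Foxa3 (NCBI gene 15377), a forkhead factor of the adult liver, had 479.8 ± 114, from 372 on replicate 2 through a median of 477 to 637 on replicate 1. Replicates 1 and 8, at 637 and 626, lay above the other 5, which ran from 372 to 488.

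Of the C/EBP factors, Cebpa (NCBI gene 12606) was the steadiest of the 9. It had 11538 ± 640.5 (SD, n = 7), at the 99.0th percentile, from 10470.4 on replicate 8 through a median of 11624 to 12403 on replicate 1, a 1.18-fold range. Cebpb (NCBI gene 12608) had 2466 ± 389, from 1941 on replicate 7 through a median of 2542 to 2983 on replicate 1. Cebpd (NCBI gene 12609) had 389 ± 107, from 297 on replicate 6 through a median of 343 to 607 on replicate 3. The next highest animal for Cebpd was replicate 7 at 430.4, so replicate 3 stood apart.

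Onecut1 (NCBI gene 15379) had 359 ± 127 (SD, n = 7), from 167 on replicate 2 through a median of 352 to 525 on replicate 3, a 3.15-fold range that was the widest among the 9. Replicates 2 and 1, at 167 and 249.8, were its 2 lowest animals. Prox1 (NCBI gene 19130) had the dimmest probe set, 127 ± 34.0, from 81.7 on replicate 1 through a median of 127 to 176 on replicate 3. It lay above the floor on all 7 arrays but below the mean of 200.1 required for the tests, so it is described and not tested. Of the 8 tested factors, 3 were highest on replicate 1 (Cebpa, Cebpb and Foxa3), 2 on replicate 3 (Cebpd and Onecut1), 2 on replicate 7 (Hnf4a and Foxa2) and 1 on replicate 8 (Foxa1), while 14.4% of all tested genes were highest on replicate 1, 14.4% on replicate 3, 14.6% on replicate 7 and 13.7% on replicate 8. These counts were chosen after the values were seen.

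**Figure D1:**
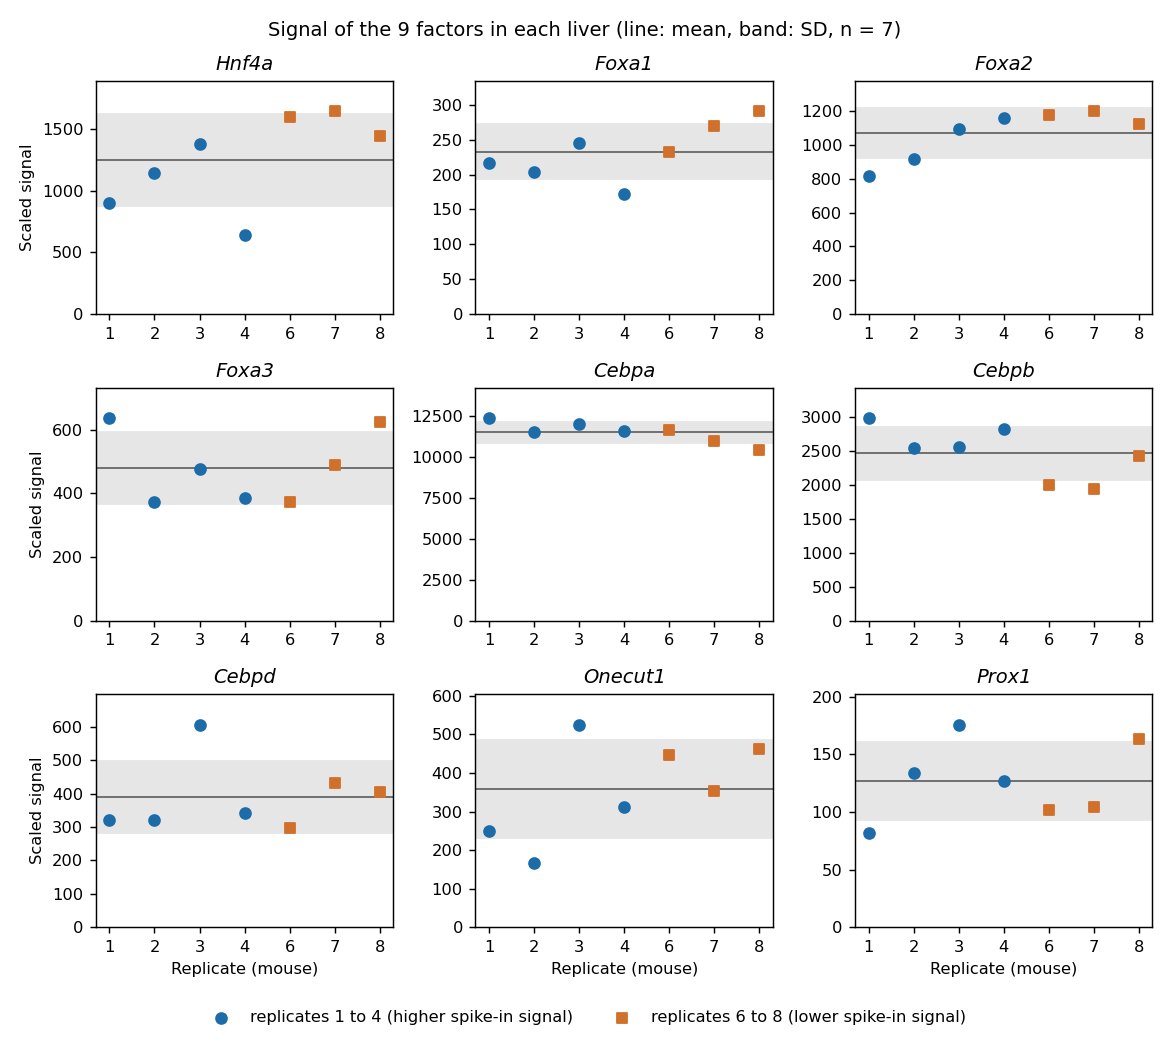
Scaled signal (vertical axis, from 0, linear) of each of the 9 factors in each of the 7 livers (horizontal axis, replicate number); the line is the mean and the grey band 1 SD to either side, circles are replicates 1 to 4 and squares replicates 6 to 8. Cebpa stays between 10470.4 and 12403, while Hnf4a ranges from 639 to 1644 and Onecut1 from 167 to 525.

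The spread of the factors between animals was then set against that of other genes of the same level. Hnf4a and Onecut1 varied most for their level. The SD of log2 Hnf4a signals was 0.50, where 0.16 was expected, a ratio of 3.06 that ranked at the 97.9th percentile of 4481 tested genes. That of Onecut1 was 0.58 against 0.22, a ratio of 2.70 at the 96.6th percentile. Cebpa had an SD of 0.08 against 0.13 expected, a ratio of 0.629 at the 14.2th percentile. Its SD alone, without regard to level, was smaller than that of all but 4.26% of tested genes.

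Neither factor passed the test over all genes. The limma-based F test gave 0 of the 8 tested factors at an adjusted p under 0.05, as it gave 0 of all 4481 genes (0.00%). At an unadjusted p under 0.05 limma gave 2 factors, Hnf4a (unadjusted p = 0.0095, adjusted p = 0.450) and Onecut1 (unadjusted p = 0.017, adjusted p = 0.512), where 6.72% of all tested genes reached it. Adjusted p ranged over the alternatives from 0.222 to 0.808 for Hnf4a and from 0.222 to 0.830 for Onecut1. Each unadjusted call was lost without 1 animal: Hnf4a had an SD of 0.33 and an unadjusted limma p of 0.059 without replicate 4, and Onecut1 an SD of 0.40 and an unadjusted limma p of 0.069 without replicate 2. That of Onecut1 was also lost with no filter on level.

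The other 6 tested factors did not reach an unadjusted p of 0.05 in the limma-based test. Foxa3 and Cebpd had SDs of 0.33 and 0.36, at 1.74 and 1.73 times the expected SD. Cebpb had 0.23 and Foxa2 0.21, at ratios of 1.53 and 1.29. Foxa1 had 0.25, at a ratio of 0.932. Without replicate 3 the SD of Cebpd was 0.21, so that animal alone held much of its spread. Over the 8 tested factors the median ratio of SD to expected SD was 1.63, and over all tested genes it was 0.991.

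**Figure D2:**
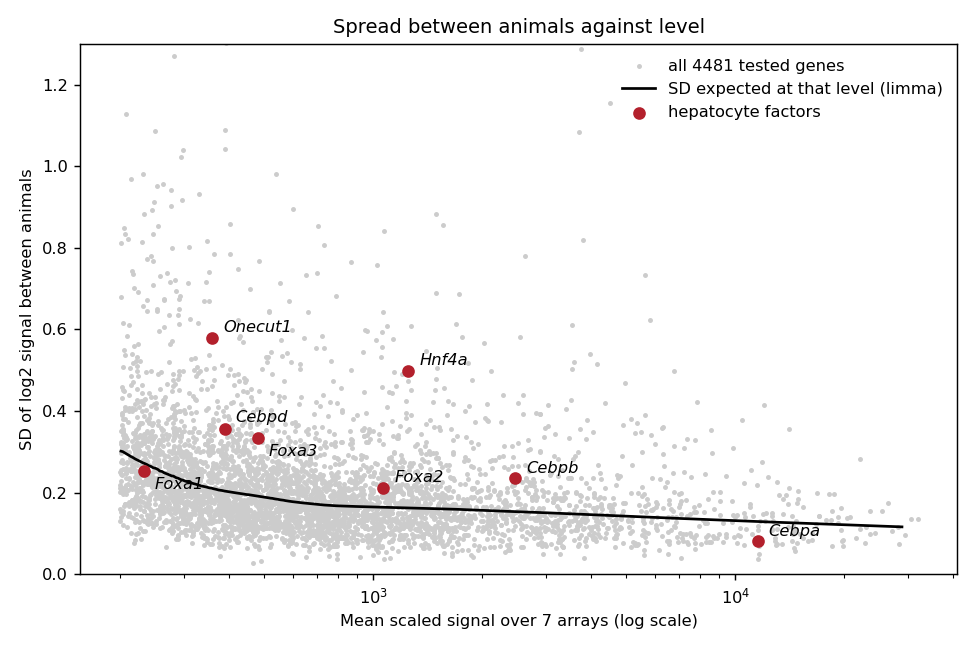
SD of log2 signal between the 7 animals (vertical axis, linear) against the mean scaled signal (horizontal axis, log scale) for 4481 tested genes in grey and the 8 tested factors in red; the black line is the SD that limma expects at each level, and 4 genes lie above the top of the axis. Hnf4a at 0.50 and Onecut1 at 0.58 lie above the line, and Cebpa at 0.08 lies below it.

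Part of the spread of some factors followed the array sets. Hnf4a reached at least 1447 on each of replicates 6 to 8 and at most 1382 on replicates 1 to 4, so the sets did not overlap. Cebpb ran the other way, at most 2427 on replicates 6 to 8 and at least 2542 on replicates 1 to 4, again without overlap. These were 2 of the 8 tested factors, and the sets did not overlap for 7.34% of all tested genes, with 3.73% higher on replicates 1 to 4 and 3.62% higher on replicates 6 to 8. The log2 difference, replicates 1 to 4 minus replicates 6 to 8, was -0.68 ± 0.23 (SE) for Hnf4a and 0.37 ± 0.11 (SE) for Cebpb.

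The limma fit with the set as a term gave 0 of 8 factors at an adjusted p under 0.05 and 0 of 4481 genes (0.00%). At an unadjusted p under 0.05 limma gave Hnf4a (unadjusted p = 0.017, adjusted p = 0.613) and Cebpb (unadjusted p = 0.0077, adjusted p = 0.555), as for 6.90% of all genes. With the set as a term, the SD of Cebpb fell to 0.14, that of Hnf4a to 0.38 and that of Onecut1 only to 0.55. Those of Foxa3 and Cebpd rose instead, to 0.36 and 0.39. Summed hepatocyte markers were also higher on replicates 1 to 4, at 128724 to 144214, than on replicates 6 to 8, at 117831 to 126775. Summed macrophage markers were lower on replicates 1 to 4, at 5466 to 5735, than on replicates 6 to 8, at 6084 to 7295. Summed stellate cell markers were higher on replicates 1 to 4, at 7252 or more, than on replicates 6 to 8, at 7160 or less. Such sums are led by the brightest markers, and not every marker followed them. Of the stellate markers, Dcn was the brightest at 4677, while Col1a2 was lowest on replicate 1 at 1478 and highest on replicate 6 at 2208. Of the hepatocyte markers, Ttr was highest on replicate 7 at 7774 and Ass1 lowest on replicate 1 at 1016. Of the macrophage markers, C1qa had 1637 on replicate 1 and 1480 on replicate 6. The set was tested for Hnf4a and Cebpb only by the fit above. The part of these cell types in their levels was not tested.

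Relations between factors were measured as correlations over the 7 animals, and each was tested by exact permutation, two-sided, over every pairing. The family held each tested factor with each tested gene, 35812 pairs, and none reached an adjusted p under 0.05 (0.00%). At an unadjusted p under 0.05, Pearson's r gave 5.80% of these pairs, 3.01% with r above 0 and 2.80% with r below 0, and Spearman's rho 5.18%. Among the 28 pairs of factors, r gave 2, 1 in each direction, and rho gave 2 at that threshold, a share near that of all pairs, so the pairs below are described and are no result about these factors.

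Hnf4a and Foxa1 had r = 0.854 (exact permutation p = 0.012, adjusted p = 0.792) and rho = 0.786 (exact permutation p = 0.048, adjusted p = 0.910). Both were lowest on replicate 4, and r was 0.668 without it. Without replicates 1 and 4, the 2 farthest from the median of Hnf4a, r was 0.649. With the mean of each array set removed it was 0.695 (permutation p = 0.081, adjusted p = 0.634). A permutation p with set means removed is approximate, because all 7 arrays were shuffled freely although removing the means ties arrays of a set together. The unadjusted call was thus lost without replicate 4 (exact permutation p = 0.147, adjusted p = 0.896) and, by the approximate p, without the set means. Hnf4a and Cebpb had r = -0.817 (exact permutation p = 0.027, adjusted p = 0.832) and rho = -0.929 (exact permutation p = 0.0067, adjusted p = 0.910). Without replicates 1 and 4, r was -0.834, and with set means removed it was -0.558 (permutation p = 0.208, approximate as above, adjusted p = 0.758). Its unadjusted call was lost there, with median centring and without replicate 2, 6 or 7. The Gapdh control's 3′ to 5′ ratio, a sign of RNA quality, had r = -0.730 with Hnf4a, -0.735 with Foxa1 and 0.590 with Cebpb (exact permutation p of 0.060, 0.062 and 0.173, adjusted p of 0.744, 0.744 and 0.844), and its part in these pairs was not tested. Over the alternatives, the adjusted p of r ranged from 0.634 to 0.918 for the first pair and from 0.751 to 0.918 for the second.

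**Figure D3:**
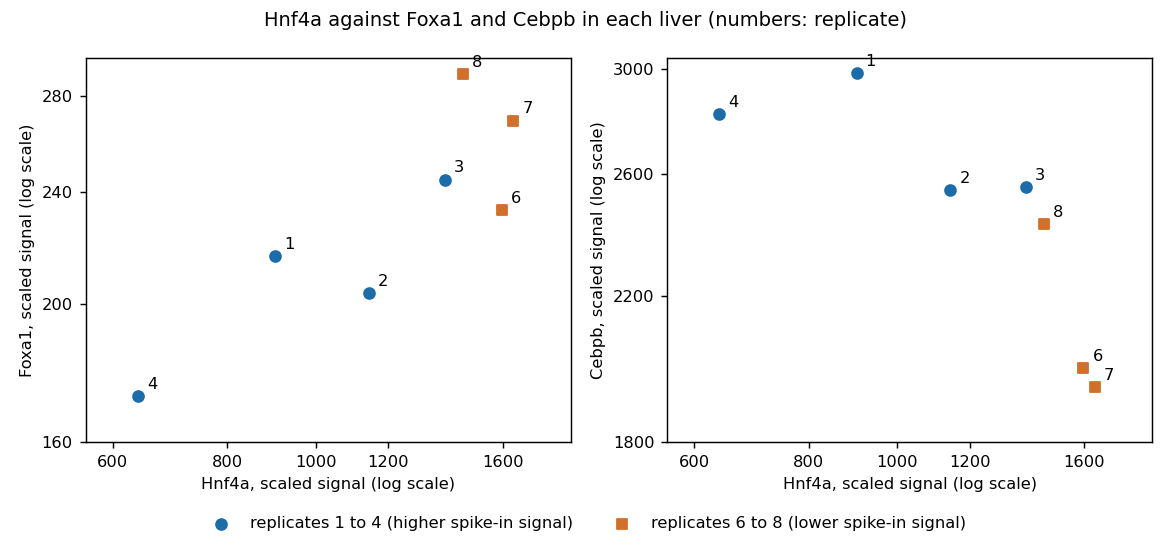
Scaled signal of Foxa1 (left, vertical axis) and Cebpb (right, vertical axis) against that of Hnf4a (horizontal axes) in each liver, all axes on a log scale, with replicate numbers beside the points; circles are replicates 1 to 4 and squares replicates 6 to 8. Foxa1 and Hnf4a are both lowest on replicate 4, at 172 and 639, and Cebpb is lowest on replicates 6 and 7, where Hnf4a is highest.

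The other pairs did not reach an unadjusted p of 0.05 for r. Foxa2 had r = 0.687 with Onecut1 (exact permutation p = 0.087, adjusted p = 0.862), but -0.660 without replicates 1 and 2, on which both were low, so this relation rests on those animals. Cebpa and Cebpb had r = 0.478, and Cebpb and Cebpd had r = -0.053, for exact permutation p of 0.272 and 0.919 and adjusted p of 0.915 and 0.994. Foxa1 had r = 0.294 with Foxa2 and 0.560 with Foxa3, for exact permutation p of 0.522 and 0.197 and adjusted p of 0.964 and 0.896. Hnf4a and Foxa2 had r = 0.368 (exact permutation p = 0.434, adjusted p = 0.951). That r was 0.993 without replicate 4, but 0.150 without replicate 1 and -0.143 with set means removed. Of the 28 values of r, 16 were above 0.

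**Figure D4:**
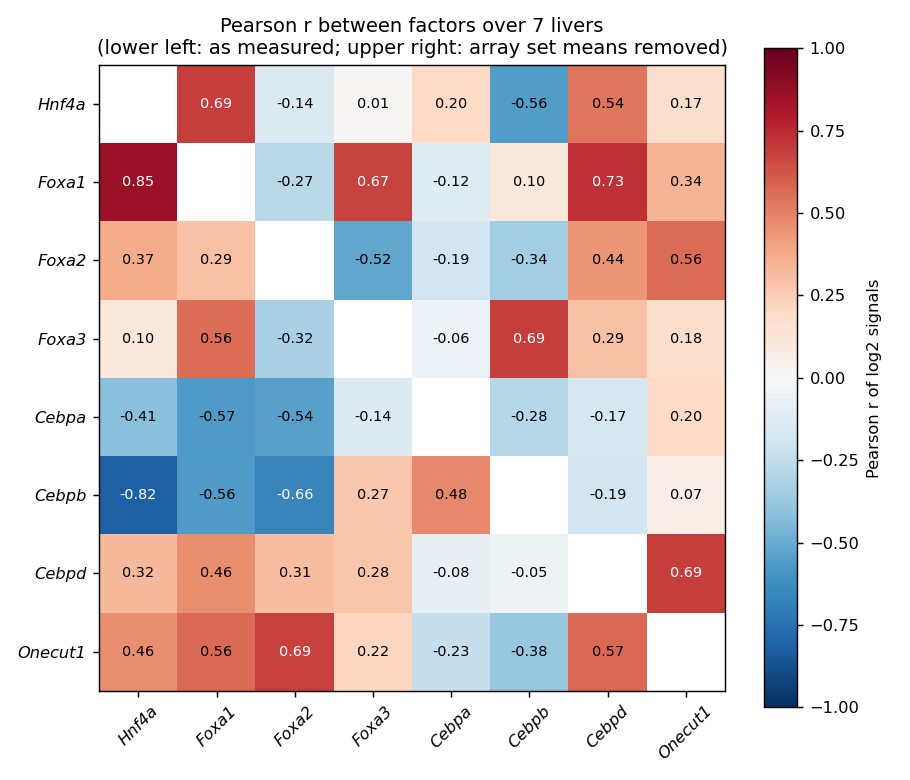
Pearson r of log2 signals between the 8 tested factors over 7 livers; the lower left triangle gives r as measured and the upper right triangle r with the mean of each array set removed, with colour from blue (-1) to red (1). The deepest squares at the lower left are Hnf4a with Foxa1 (0.85) and Hnf4a with Cebpb (-0.82).

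Genes listed as targets or inducers were next set beside their factors, from lists chosen with earlier results of these data known. Of the 7 tested genes listed as targets of Onecut1, which include Hnf4a and Foxa2 themselves, 5 had r above 0 with Onecut1. Their median r was 0.687, which is the value of Foxa2 that turned negative without replicates 1 and 2. Over all tested genes the median r was 0.031, and 52.4% were above 0. At an unadjusted p under 0.05 and r above 0, 1 of the 7 was called, against 3.26% of all genes with Onecut1.

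That gene was Cyp7a1, which starts the main route from cholesterol to bile acids, with a signal of 1396 ± 492 (SD, n = 7). Its 3 lowest animals were replicate 2 at 761, replicate 4 at 919 and replicate 1 at 1053, and the other 4 ran from 1400.1 to 1928. Onecut1 was at 311 or less on the same 3 animals and at 352 or more on the other 4. Their r was 0.865 (exact permutation p = 0.011, adjusted p = 0.792) and rho 0.929 (exact permutation p = 0.0067). Without replicates 2 and 3, r was 0.693, with set means removed it was 0.818, and leaving out any 1 animal gave 0.763 to 0.922.

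G6pc and Pck1, enzymes of glucose production, had r = 0.741 and 0.745 with Onecut1, each with an exact permutation p of 0.057 and an adjusted p of 0.857. G6pc ran from 2611 on replicate 2 to 6834 on replicate 8, and Pck1 from 3408 on replicate 4 to 5141 on replicate 6. Igfbp1, a binding protein that dampens Igf1, and Ttr, the thyroxine carrier, had r = -0.630 and -0.378 (exact permutation p of 0.129 and 0.406, adjusted p of 0.871 and 0.947). Igfbp1 had 600 to 1310 on replicates 1, 2 and 4, the 3 animals lowest in Onecut1, and 223 to 310.5 on the other 4.

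**Figure D5:**
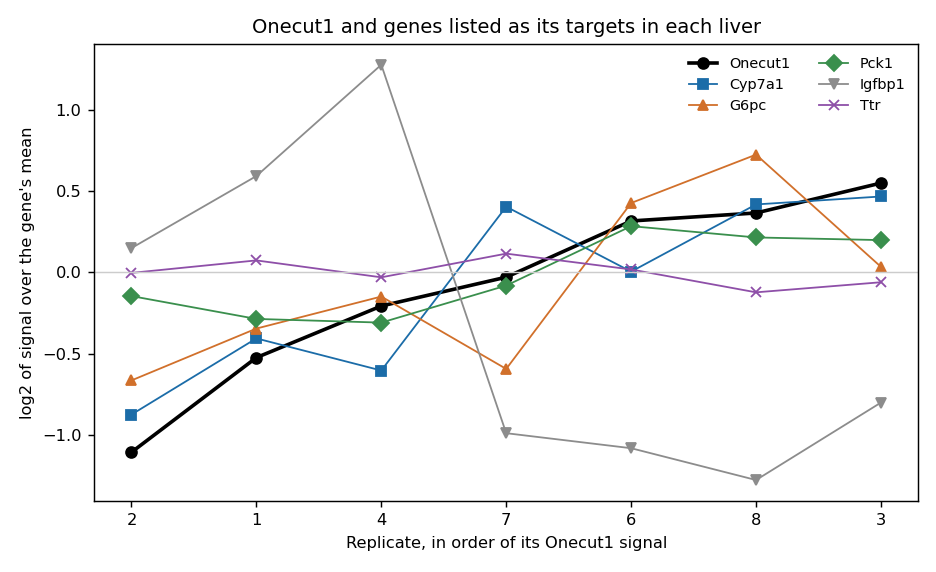
Log2 of each gene's signal over its own mean (vertical axis) in the 7 livers, ordered along the horizontal axis by their Onecut1 signal from replicate 2 (167) to replicate 3 (525); black circles are Onecut1 and the other lines are 5 genes of its target list. Cyp7a1 is low on replicates 2, 1 and 4 and Igfbp1 is high on them, while Ttr stays between 6593 and 7774.

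The target list of Hnf4a did not follow it in one direction. Of 20 tested genes, 9 had r above 0, with a median r of -0.06, against 0.009 over all tested genes. None was called with r above 0, against 4.38% of all genes, and 2 with r below 0, against 3.24%. These were Ces1c, a carboxylesterase, with r = -0.809 (exact permutation p = 0.021, adjusted p = 0.825), and F9, a clotting factor, with r = -0.828 (exact permutation p = 0.035, adjusted p = 0.842). The relation with F9 rests on replicate 4, where F9 had 4342 against 3445 to 3643 elsewhere: r was -0.368 without it. Ces1c was at most 4063 on replicates 6 to 8 and at least 4507 on replicates 1 to 4, the same sets that divide Hnf4a, and r was -0.524 with set means removed. Apoa1, the main protein of high-density lipoprotein, had r = -0.085 with Hnf4a (exact permutation p = 0.864, adjusted p = 0.993). Cyp7a1, on this list as well as that of Onecut1, had r = 0.712 with Hnf4a (exact permutation p = 0.071, adjusted p = 0.857). That r was 0.491 with set means removed.

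For Foxa2, 3 of 11 tested target genes had r above 0, with a median of -0.21 against 0.04 over all genes, and none was called, against 6.47% of all genes in either direction. The lowest r of Foxa2 with any tested gene was -0.983, with the skeletal muscle actin Acta1. Acta1 was at 5991 and 2034 in the animals lowest in Foxa2, replicates 1 and 2, and at 100.4 or less elsewhere, and r was -0.589 without those 2. The 3′ to 5′ ratio of the beta-actin control had r = 0.945 with Foxa2 (exact permutation p = 0.0046, adjusted p = 0.877), and was 1.34 on replicate 1, 1.31 on replicate 2 and at least 1.56 elsewhere. Of all tested genes, 5.38% reached an unadjusted p under 0.05 with the beta-actin ratio. The part of muscle RNA and of this ratio in the level of Foxa2 was not tested.

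For Cebpa, 9 of 13 tested target genes had r above 0, with a median of 0.10 against -0.02 over all genes, and none was called, against 3.79% of all genes in either direction. Cps1, the entry enzyme of the urea cycle, had the highest, r = 0.735 (exact permutation p = 0.060, adjusted p = 0.857).

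The acute phase genes listed for Cebpb were divided. Of 20 tested, 9 had r above 0, with a median of -0.03 against -0.04 over all genes, and 1 was called with r above 0, against 3.33% of all genes. This was Orm1, an acute phase glycoprotein, with r = 0.761 (exact permutation p = 0.045, adjusted p = 0.855), but r = -0.067 without replicates 6 and 7. Saa2, a serum amyloid gene, had 12083 on replicate 7, where Cebpb was lowest, and r = -0.561 (exact permutation p = 0.156, adjusted p = 0.882), but -0.162 without that replicate.

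For Cebpd, 10 of 15 tested genes of the signals that induce it had r above 0, with a median of 0.13 against 0.02 over all genes, and none was called, against 4.67% of all genes in either direction. Il6ra, the receptor for interleukin-6, had 778 on replicate 3, where Cebpd was highest, and 397 to 607 on the other 6. Its r was 0.687 (exact permutation p = 0.080, adjusted p = 0.858), but 0.184 without replicate 3 and 0.813 without both replicates 3 and 7. Fkbp5, a glucocorticoid-induced gene, was lowest on replicate 3 at 708 and had r = -0.532 (exact permutation p = 0.227, adjusted p = 0.901), but -0.033 without that replicate.

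No correlation was computed for Prox1, whose probe set was too dim. Cyp8b1, a bile acid enzyme listed as its target, was lowest on replicate 1 at 1937 and highest on replicate 3 at 4074, the animals lowest and highest in Prox1 at 81.7 and 176. Cyp7a1, also on that list, was highest on replicate 3 but lowest on replicate 2. Nr5a2, which Prox1 restrains, ran from 850.03 to 1056.

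The genes whose pattern over the 7 animals was most like a factor's are named by their r, which is the extreme of 4480 values and is given with no test. For Hnf4a these were Rps4x (r = 0.988), Asah1 (0.961) and Ociad1 (0.960), with Kmt2e (-0.974) and Nfic (-0.968) most opposed. Nfic is itself on the list of other liver factors, with signals from 1579 to 2524. For Foxa1 they were Mrpl50, Hip1r and Smg5 (0.936 to 0.941), opposed by Adh1 (-0.978) and Apobec1 (-0.969). For Foxa2 they were Il27ra (0.960), Shbg (0.945) and Ctnnd2 (0.944), opposed by Acta1 and by Slc25a4 (-0.976). For Foxa3 they were Gsk3a (0.976), Nop16 (0.963) and Sf3b6 (0.944), opposed by Col6a1 (-0.980) and Ncoa5 (-0.956). For Cebpa they were Acvr2b (0.970), Lrp5 (0.948) and Rpl7a (0.936), opposed by Ctnnb1 (-0.976) and Prkar1a (-0.967). For Cebpb they were Atp5mpl (0.966), Zbtb20 (0.960) and Mien1 (0.952), opposed by Inpp4a (-0.981) and Htr1b (-0.962). For Cebpd they were Gata2 (0.967), Rogdi (0.956) and Arfgap2 (0.944), opposed by Uck1 (-0.969) and Mlec (-0.959). For Onecut1 they were Hif3a (0.975), Ube2v1 (0.959) and Wsb2 (0.948), opposed by Tgfb1i1 (-0.948) and Llgl2 (-0.935).

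Related factors outside the 9 gave the wider setting. Of 31 other liver factors listed, 23 were measured and 18 tested, with a median signal of 800.1 over those measured. The brightest were Nr1i3, a nuclear receptor for foreign compounds, at 5597 ± 768 (SD, n = 7), and Srebf1, which drives fatty acid synthesis, at 5514 ± 775. Ppara, the nuclear receptor of fatty acid oxidation, ran from 1073 on replicate 6 to 3336 on replicate 3, and Rxra, the partner of many nuclear receptors, from 664 on replicate 4 to 1644 on replicate 3. At an unadjusted p under 0.05 in the limma-based test of spread, 2 of the 18 were called, against 6.72% of all tested genes, and 0 at an adjusted p under 0.05.

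Of 17 other forkhead genes measured, 7 were tested, and 5 lay below the floor on all 7 arrays: Foxc1, Foxc2, Foxf1, Foxf2 and Foxb1. Foxo4 was the brightest at 1184 ± 176 (SD, n = 7), and Foxq1 ran from 387 on replicate 2 to 1119 on replicate 3. In the limma-based test of spread, 2 of the 7 had an unadjusted p under 0.05, against 6.72% of all tested genes, and 0 an adjusted p under 0.05. Lists this short give no firm share. Of 9 other leucine zipper genes measured, 6 were tested and 0 had an unadjusted p under 0.05. Tef and Dbp, factors of the circadian output, had 2297 ± 487 and 942 ± 257 (SD, n = 7), and Cebpg, a partner of the C/EBP proteins, had 226 ± 48.3. Of 12 cofactors measured, 6 were tested, with a median signal of 204 over those measured. Tle1 and Med1 were called at an unadjusted p under 0.05, against the same 6.72% of all tested genes, and neither at an adjusted p under 0.05.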

How the data were processed

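Liver RNA was hybridised to Affymetrix U74Av2 arrays of 1 colour and, per the labels, scanned on a Hewlett-Packard GeneArray. The deposited table gives a linear intensity for each of 12488 probe sets on each array; its software is not given in the sources used here. After trimming 2% at both ends, array means were 500.36 to 500.39, so the values had already been scaled. The number of arrays limits the precision.

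Arrays were scaled to 1 trimmed mean, values under 0.1 of it were raised to that floor, and log2 values were analysed. The brightest probe set stood for each gene. The tests took genes whose mean was 0.4 of the trimmed mean (200.1) or more. Spread was tested with limma 3.58.1 (R 4.3.3) in an intercept-only fit, with an upper-tail F test against a robust prior following the level (prior degrees of freedom 5.61). A second fit had the array set, divided at the widest spike-in gap, as a term. Both were adjusted by Benjamini-Hochberg over all tested genes, with a threshold of 0.05. Correlation p-values are the share of all pairings with an absolute value as large, adjusted over all pairs of a tested factor with a tested gene, or, for 3′ to 5′ ratios, over all tested genes. The steps were tested on simulated data. Python 3.11.15, numpy 2.4.6, pandas 2.3.3, scipy 1.17.1 and matplotlib 3.10.9 were used.

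The factors, the 22 lists of other genes and the alternatives were chosen with earlier results of these data known. Named genes are the factors, for each tested factor the 3 highest and 2 lowest in r, and in each list at most 4 by level, 2 by SD and, for target and inducer lists, 3 by absolute r. Genes below the floor were named after their values were seen. Alternatives tried were other scalings (none, median, quantile), floors of 0.05 and 0.2, an offset, filters of 0.2, 0.8 and none, averaged probe sets, each array left out, set means removed, and a prior that was not robust or had no trend.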

Additional observations from a re-analysis of the deposited data

Results flagged for a closer look

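The Cebpd signal of 607 on replicate 3 stood apart from the other 6 animals by Dixon's ratio at its 95% critical value: its gap to the next highest was 0.570 of the whole range, just past that value. On the log2 scale the ratio was 0.481, not past it. The check covered 18 ratios, for 9 factors on 2 scales. By construction it picks about 1 group in 20 by chance, and 6.20% of all tested genes passed it on the same scale.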

How the results depend on the processing

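No factor passed the test of spread, no pair of factors and no factor with a listed gene the test of relation, and no factor the test of array sets, at an adjusted p under 0.05, in the main setting or under any alternative run. For relations such a call was hardly possible, because the lowest exact p that so few arrays allow is high for so many pairs. The number of factors bright enough to test was 8, and 5 with a filter of 0.8, but 9, Prox1 included, with a filter of 0.2 or none. Log2 SDs that moved by over 1.5 times were those of Hnf4a without replicate 4, Cebpd without replicate 3 and Cebpb with the array set as a term. The difference between array sets changed sign for Cebpd without replicate 3 (-0.18, against 0.04) and without replicate 6 (-0.12), and for Foxa3 without replicate 2 (0.01, against -0.08) and without replicate 8 (0.10), and for Onecut1, at -0.54, it ran from -0.83 without replicate 3 to -0.28 without replicate 2; the cause was not tested. The unadjusted call of Hnf4a between array sets was lost without replicate 7 (a difference of -0.64) and with no filter. The pair of Hnf4a and Cebpb kept r between -0.905 and -0.558, and that of Hnf4a and Foxa1 between 0.668 and 0.907, over the alternatives run. No paired analysis was possible because all arrays form 1 group. Signal over background limits Prox1, the dimmest factor.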

Other observations

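Several other liver factors were highest on replicate 3, the animal highest in Cebpd, Onecut1 and Prox1. Of the 18 tested genes of the list of other liver factors, 6 had their highest signal there: Cux1, Hhex, Nr1i3, Ppara, Rxra and Xbp1. Of the 7 tested forkhead genes outside the 9 factors, 3 did: Foxd2, Foxl1 and Foxq1. Of the 6 tested leucine zipper genes 1 did, Dbp, and of the 6 tested cofactors 1 did, Tle3. Of all 4481 tested genes, 14.4% were highest on replicate 3. These counts were chosen after the values were seen and have no test.

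The Gapdh control's 3′ to 5′ ratio had r = -0.783 with Cebpd (exact permutation p = 0.028, adjusted p = 0.706 over all tested genes), rho = -0.679 and r = -0.596 once the 2 arrays with the most distant ratios were left out. Of all tested genes, 6.72% reached an unadjusted p under 0.05 with that ratio.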
